A study of Mus musculus with 8 samples.

Results

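This account follows 33 mouse genes that are transcriptional targets or partners of p53, leaving aside the CDK inhibitor and BCL2 families. The genes were taken by symbol from the 54838 gene rows of both deposited count tables, through GENCODE vM21, and all 33 were found and passed the filter on low counts in both comparisons. The cells were embryonic fibroblasts, connective tissue cells grown from mouse embryos, and their poly(A) RNA was sequenced in 8 libraries, 2 in each of 4 groups. The first group was proliferating cells. The second, n-Sen, was made senescent with nutlin3a, a small molecule that blocks the binding of MDM2 to p53. Inhibition of CDK1 by RO3306 first held these cells in G2, nutlin3a was kept on for 48 h, and BI-2536, which inhibits PLK1, was then present at 100 nM for 14 days to remove cells still dividing. The other two groups were n-Sen cells that had the same induction and then spent 24 h in HEPES-buffered medium set to a control or an alkaline pH. The pH values, mouse strain, embryo age and number of cultures are not given in the sources used here, and neither is any genetic change. The p-values therefore measure the spread between libraries, which may be technical.

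p53 is a transcription factor that MDM2 keeps scarce by tagging it for degradation, and MDM4 restrains it by binding its activation domain. When p53 is stabilised it induces genes that stop the cell cycle, promote cell death, repair DNA and adjust metabolism, and it also induces Mdm2, which closes a feedback loop. Much of this control acts on the p53 protein, which RNA levels do not report. In fibroblasts sustained p53 activity is a known route to senescence, a lasting exit from division.

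p53 binds DNA through pairs of a decamer known as the p53 response-element motif. RefSeq promoter windows on GRCm38.p6, the build also called mm10, ran from 250 bases before to 50 after a start site and matched 26 of the 33 genes. The decamer was present in the windows of 11 of these 26 genes (42.3%), against 9.55% of 27025 genes in the table, and it reads as a match on both strands. No window of these genes held the full element, which is a pair of decamers with a gap of at most 13 bases, against 20 of the 27025. The sequences below show the decamer, in capitals, with its surroundings for genes whose values are described later. They were chosen after those values were known.
Mdm2 (chr10:117710910-117710969, minus strand): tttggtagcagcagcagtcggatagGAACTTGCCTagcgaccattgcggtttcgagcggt
Ccng1 (chr11:40755437-40755496, minus strand): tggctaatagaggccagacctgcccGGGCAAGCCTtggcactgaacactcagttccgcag
Trp53 (chr11:69580259-69580318, plus strand): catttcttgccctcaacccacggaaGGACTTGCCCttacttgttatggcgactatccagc
Ddit4l (chr3:137623557-137623616, plus strand): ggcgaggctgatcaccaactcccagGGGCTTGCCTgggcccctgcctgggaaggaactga
Sesn1 (chr10:41887241-41887300, plus strand): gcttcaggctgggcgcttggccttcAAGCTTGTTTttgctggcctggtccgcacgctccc
Ckap2 (chr8:22185988-22186047, minus strand): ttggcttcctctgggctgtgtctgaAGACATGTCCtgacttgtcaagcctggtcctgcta

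Genes of mitosis carry another element, the CHR (TTTGAA or TTCGAA, searched on both strands), often together with CCAAT boxes. Of 20 genes with a window in a list of mitotic genes, 15 held a CHR (75%), against 6 of the 26 p53 target genes (23.1%) and 21.7% of all genes. CCAAT stood in the windows of 18 of the 26 (69.2%), 17 of the 20 mitotic genes (85%) and 41.1% of all genes. None of these shares takes account of base composition. Of the p53 target genes, Gtse1, Psrc1 and Ckap2 act on the mitotic spindle, and 2 of them have a CHR, shown in capitals, upstream of a start site.
Psrc1 (chr3:108383783-108383837, plus strand): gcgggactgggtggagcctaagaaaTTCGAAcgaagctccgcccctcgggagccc
Ckap2 (chr8:22185890-22185945, minus strand): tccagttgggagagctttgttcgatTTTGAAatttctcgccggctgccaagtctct

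Library totals ran from 40608517 to 54183060 expected counts. Levels below are CPM, counts relative to the library size, which was scaled by TMM within each table to correct for composition. The summed levels of marker lists were instead scaled over all 8 libraries together. Changes are log2 fold changes ± SE from the quasi-likelihood test of edgeR, and p-values were adjusted over all genes tested by the Benjamini-Hochberg method. Genes past an adjusted p of 0.05 are said to rise or fall. Fibroblast markers such as Col1a1, Fn1 and Vim were abundant, and the list of 14 summed to between 18180 and 41552 CPM. Others were scarce: the proliferating libraries averaged 9.75 CPM for Dcn, 2.76 CPM for Fap and 0.596 CPM for Lum. Of the 14, 12 rose in n-Sen, and the 2 that fell were Pdgfra (-3.17 ± 0.09) and Thy1 (-0.22 ± 0.053). In alkaline medium 3 of the 14 rose and 7 fell. Macrophage markers moved with the comparisons: the summed level of the 20 genes was 65.2 and 58.2 CPM in proliferating cells, whereas the n-Sen libraries had 1268 and 1346 CPM. After the change of medium it was 1305 and 1236 CPM at control pH, against 1153 and 1146 CPM at alkaline pH. All 19 that could be tested rose in n-Sen and 9 fell in alkaline medium, none of the 20 was at 0 in every library or in the proliferating ones, and their part in the results below was not tested. In bulk RNA, fewer cells of a type and less RNA per cell cannot be told apart. The 10 epithelial markers summed to 86.7 and 79.2 CPM in proliferating cells and to between 8.75 and 16.2 CPM in the other libraries. Krt19 was the most abundant of them in proliferating cells, with a mean of 56.8 CPM. In n-Sen 1 of the 6 epithelial markers tested rose, Cdh1, and 4 fell. Cdh1 was near the floor, at 0 and 0.0406 CPM in proliferating cells and at 0.217 and 0.34 CPM in n-Sen. Beside these marker counts, 34.0% of all genes rose and 33.1% fell in n-Sen, and 9.58% rose and 10.4% fell in alkaline medium. The 10 endothelial markers summed to between 8.89 and 34.6 CPM. Cldn5 was at 0 in every library and Esrp1 in the proliferating ones.

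The first comparison asks how these genes differ between n-Sen and proliferating cells. Death receptor and apoptosis genes, DNA repair genes and most genes of stress and metabolism were higher in n-Sen, while Trp53, Mdm4, Plk2, Gtse1 and Ckap2 were lower. Of the 33 genes, 26 rose (78.8%), 5 fell (15.2%) and 2 did not pass. Over all 19264 genes tested 67.1% passed, 34.0% higher and 33.1% lower. The median log2 fold change of the 33 was 0.91, against 0.001 over all genes. Nutlin3a, BI-2536 and time in culture cannot be told apart from the senescent state in this comparison.

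**Figure D1:**
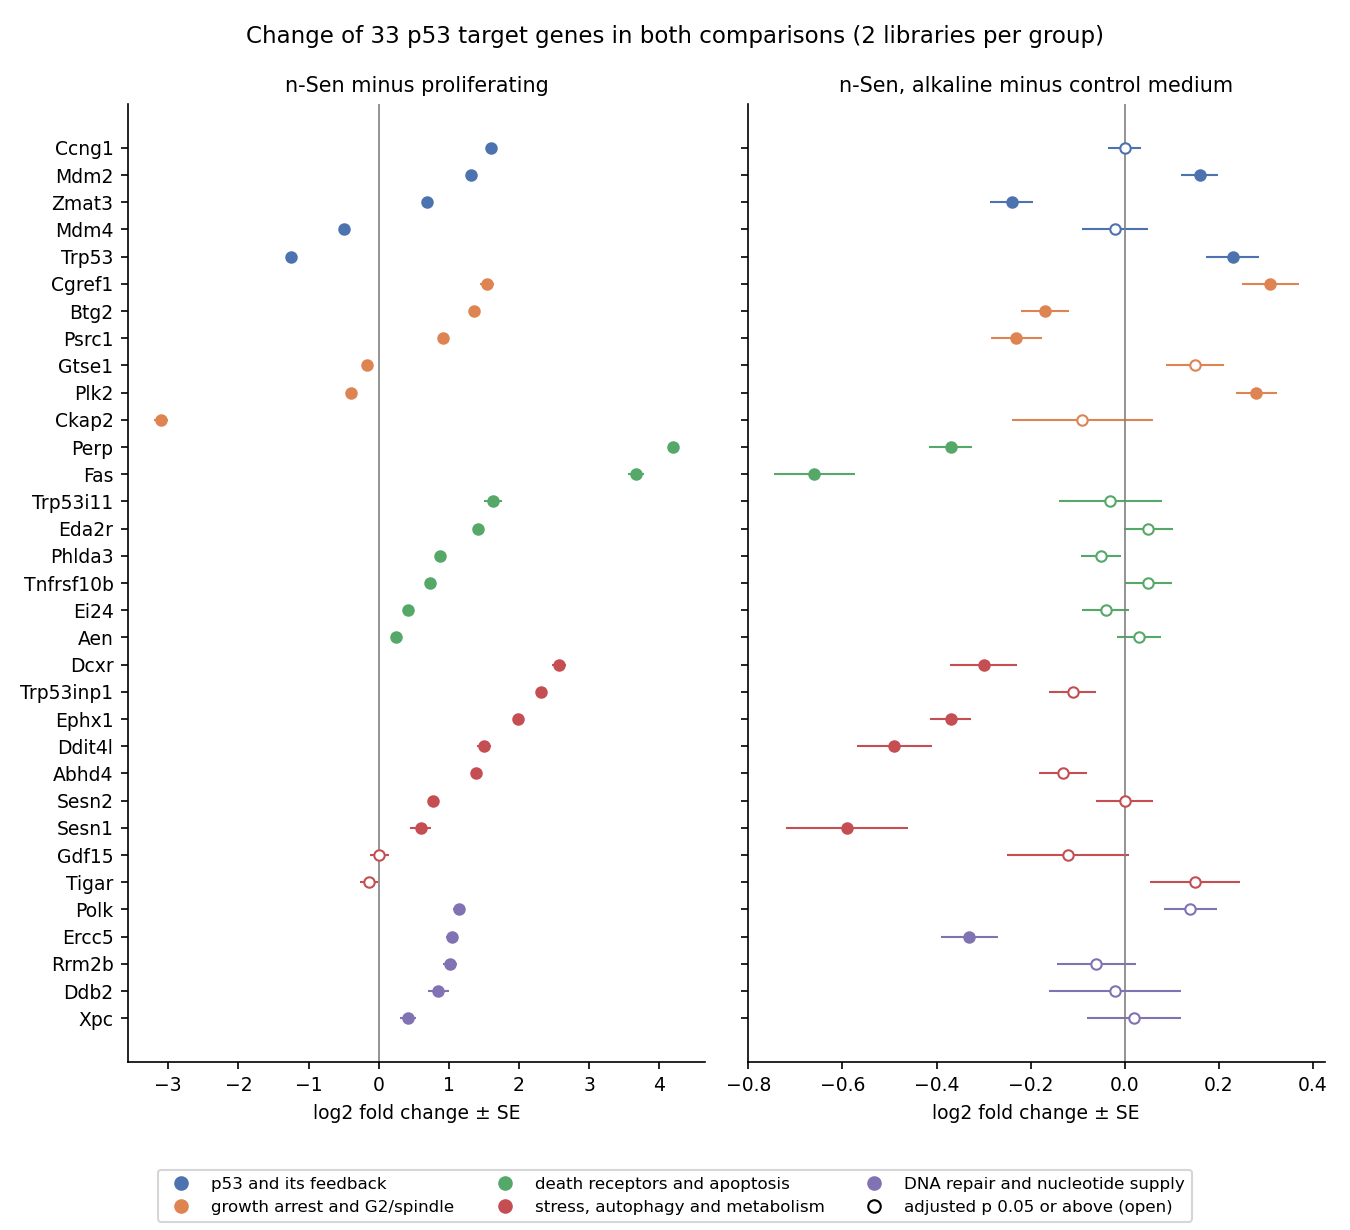
Log2 fold change ± SE (x axis; the scales of the panels differ) of the 33 p53 target genes (y axis, coloured by role) in n-Sen against proliferating cells (left) and in alkaline against control medium (right); filled points passed an adjusted p of 0.05 and open points did not. On the left most points lie right of 0, up to 4.20 for Perp, with Ckap2 at -3.10; on the right no point is farther from 0 than Fas at -0.66.

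Among p53 and the genes that feed back on it, the transcript of Trp53 (chromosome 11, 69580359 to 69591873) was at 164 and 148 CPM in the proliferating libraries and at 62.8 and 68.0 CPM in n-Sen. Mdm2 (chromosome 10, 117688875 to 117710758) was at 160 and 165 CPM in proliferating cells and at 403 and 402 CPM in n-Sen. Mdm4 (chromosome 1, 132959484 to 133030561) was at 69.4 and 74.4 CPM, and at 52.3 and 50.3 CPM in n-Sen. The groups did not overlap for any of these genes, so the ubiquitin ligase Mdm2 was high where its partner Mdm4 and its substrate's own transcript were low. The changes were -1.25 ± 0.065 for Trp53, 1.31 ± 0.049 for Mdm2 and -0.49 ± 0.067 for Mdm4, with edgeR adjusted p of 1.45e-11, 1.83e-13 and 4.64e-06. Ccng1 encodes cyclin G1, which brings protein phosphatase 2A to MDM2. Its level was 425 and 457 CPM in proliferating cells and 1331 and 1336 CPM in n-Sen (1.60 ± 0.047). Zmat3, an RNA-binding zinc finger protein, was at 128 and 122 CPM and then at 209 and 195 CPM (0.69 ± 0.056). Both n-Sen libraries were above both proliferating ones for Ccng1 and for Zmat3.

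Genes of growth arrest and the G2 spindle split into 3 that rose and 3 that fell, where 34.0% of all genes rose and 33.1% fell. Cgref1, a secreted EF-hand protein that restrains growth, was at 17.1 and 14.0 CPM in proliferating cells and at 45.5 and 44.6 CPM in n-Sen (1.54 ± 0.097). Btg2, an antiproliferative partner of the mRNA deadenylase complex, was at 37.8 and 37.4 CPM and then at 102 and 91.4 CPM (1.36 ± 0.069). Psrc1, a microtubule-binding protein of the spindle, was at 42.4 and 39.8 CPM and then at 80.1 and 73.8 CPM (0.91 ± 0.070). These 3 genes were about 2 to 3 times as high in n-Sen, with folds of 2.90, 2.57 and 1.87.

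Ckap2, which stabilises spindle microtubules, had the steepest fall of the 33, from 63.3 and 60.6 CPM to 8.04 and 6.45 CPM (-3.10 ± 0.10, edgeR adjusted p 2.68e-14). Plk2, a polo-like kinase that acts at centrioles, was at 259 and 260 CPM and at 189 and 204 CPM in n-Sen (-0.40 ± 0.052). Gtse1, a microtubule-tracking protein that moves p53 out of the nucleus in G2, was at 72.7 and 75.4 CPM and at 66.1 and 66.0 CPM (-0.17 ± 0.061). The fall of Gtse1 was small, and its edgeR adjusted p of 0.0252 did not hold with DESeq2 (0.0821), without the low-count filter (0.0763), without proliferating replicate 2 (0.0704) or without n-Sen replicate 1 (0.126) or 2 (0.130). In the list of 24 mitotic genes, such as Top2a and Ccnb1, all 24 fell, with log2 fold changes between -5.70 and -3.30 and a median of -4.91. The falls of Plk2 and Gtse1 and the rise of Psrc1 lay outside that range. Ckap2, at -3.10 ± 0.10, lay near its edge, which was Tpx2 at -3.30 ± 0.063.

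All 8 genes of death receptors and apoptosis rose, with a median of 1.14. Perp, a membrane protein of desmosomes that promotes apoptosis, was at 8.90 and 10.8 CPM in proliferating cells and at 180 and 184 CPM in n-Sen. Its rise of 4.20 ± 0.080, an 18.4-fold difference, was the largest of the 33. Fas (chromosome 19, 34290666 to 34327772), the receptor of the death ligand FasL, was at 3.93 and 3.27 CPM and at 45.9 and 45.2 CPM in n-Sen. Fas thus rose 12.7-fold (3.67 ± 0.11). The macrophage markers had a median of 4.22, and their part in the rises of Fas and Perp was not tested. Trp53i11, a p53-inducible membrane protein, was at 6.01 and 4.94 CPM and then at 17.8 and 16.0 CPM (1.63 ± 0.13). Smaller rises were those of Eda2r, the receptor of ectodysplasin A2, at 1.41 ± 0.073, and of Phlda3, which keeps AKT from the membrane, at 0.87 ± 0.051. The TRAIL receptor gene Tnfrsf10b rose by 0.73 ± 0.058, the endoplasmic reticulum gene Ei24 by 0.42 ± 0.059 and the nuclease gene Aen by 0.25 ± 0.055. Over all genes tested, 34.0% rose in this comparison.

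Of 9 genes of stress, autophagy and metabolism, 7 rose and 2 did not pass, while 34.0% of all genes tested rose. Dcxr, a reductase of dicarbonyls and xylulose, was at 6.69 and 7.48 CPM in proliferating cells and at 39.9 and 44.2 CPM in n-Sen (2.57 ± 0.10). Trp53inp1, a stress protein that takes part in autophagy, was at 35 and 38.4 CPM and then at 185 and 180 CPM (2.31 ± 0.063). Ephx1, the microsomal epoxide hydrolase, was at 85.5 and 80.0 CPM and then at 327 and 331 CPM (1.99 ± 0.054). For each of these genes the n-Sen libraries lay far above the proliferating ones, with folds of 5.92, 4.97 and 3.98. The mTORC1 inhibitor Ddit4l was at 10.2 and 10.1 CPM and at 28.5 and 28.8 CPM in n-Sen (1.5 ± 0.098). Sesn1 and Sesn2 encode sestrins, which also restrain mTORC1. Sesn1 was at 6.79 and 9.53 CPM and at 12.8 and 12.2 CPM in n-Sen (0.60 ± 0.15), and Sesn2 rose by 0.77 ± 0.068. The phospholipase gene Abhd4 rose by 1.38 ± 0.061.

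The 2 genes that did not pass in n-Sen were Tigar and Gdf15. Tigar, a phosphatase that lowers glycolysis, was at 22.1 and 17.0 CPM in proliferating cells and at 15.9 and 19.4 CPM in n-Sen (-0.14 ± 0.13, edgeR adjusted p 0.339). Gdf15, a secreted member of the TGF-beta family, was at 11.8 and 9.12 CPM and at 9.93 and 11.1 CPM (0.01 ± 0.14, edgeR adjusted p 0.964). For both genes the libraries of the groups overlapped. Tigar passed as lower when proliferating replicate 2 was left out (-0.33, edgeR adjusted p 0.019).

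All 5 genes of DNA repair and nucleotide supply rose, where 34.0% of all genes tested did. Polk, a DNA polymerase that copies past lesions, was at 32.4 and 39.8 CPM in proliferating cells and at 81.0 and 78.6 CPM in n-Sen (1.14 ± 0.083). Ercc5, the XPG endonuclease of nucleotide excision repair, was at 26.5 and 31.2 CPM and then at 62.1 and 57.4 CPM (1.05 ± 0.084). Rrm2b, a p53-inducible subunit of ribonucleotide reductase, was at 12.8 and 14.4 CPM and then at 25.9 and 29.3 CPM (1.02 ± 0.10). These 3 were close to 2 times as high in n-Sen, with folds of 2.21, 2.07 and 2.02. Both damage-recognition genes of excision repair rose from lower levels, Ddb2 by 0.85 ± 0.15 and Xpc by 0.42 ± 0.11.

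Exon lengths of these genes differ, so levels of different genes were compared as CPM per kb of exon, with all 8 libraries scaled together. Ccng1 was the highest of the 33 in every group, at 124 ± 5.5 (SD, n = 2) in proliferating cells and 373 ± 0.87 in n-Sen. Phlda3 was next in every group, at 108 ± 0.51 and 197 ± 7.4. The order of the others was rearranged: Perp moved from rank 24 to rank 4, at 91.5 ± 0.82 in n-Sen. Fas moved from rank 31 to rank 15, Trp53 from rank 5 to rank 20 and Ckap2 from rank 10 to the last place, at 2.22 ± 0.36. At the low end of n-Sen, Rrm2b and Xpc had the same mean of 2.97 per kb and Sesn1 was at 3.08 ± 0.12, differences within their spread.

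**Figure D2:**
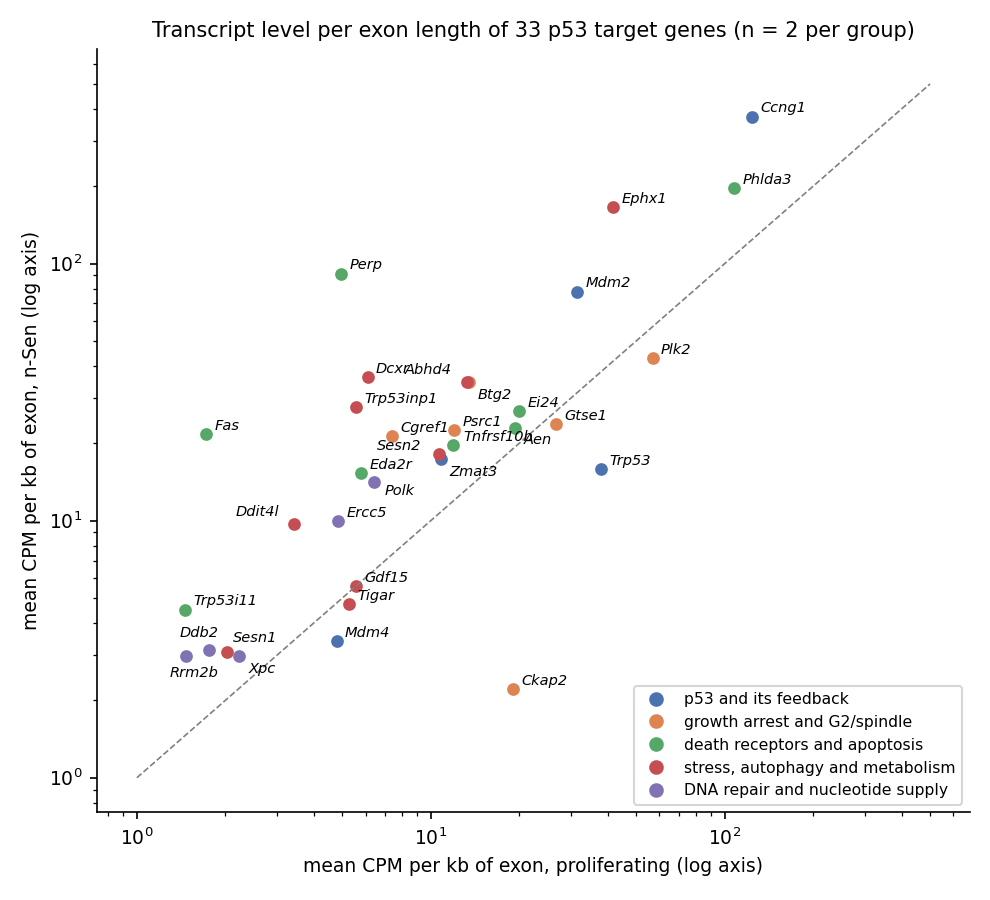
Mean CPM per kb of exon in proliferating cells (x axis, log scale) and in n-Sen (y axis, log scale) for the 33 p53 target genes, n = 2 libraries per group, coloured by role; the dashed line marks equal levels. Ccng1 and Phlda3 lie at the upper right, Perp and Fas lie far above the line and Ckap2 far below it.

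The second comparison asks how 24 h in alkaline medium changed these genes in cells that were already senescent. Fas, Perp, the mTORC1 inhibitors Sesn1 and Ddit4l, the metabolic genes Ephx1 and Dcxr, Ercc5, Zmat3, Psrc1 and Btg2 were lower in alkaline medium, and Trp53, Mdm2, Plk2 and Cgref1 were higher. Thus 10 of the 33 fell (30.3%), 4 rose (12.1%) and 19 did not pass. Over all 19129 genes tested 20.0% passed, 9.58% higher and 10.4% lower. All log2 fold changes of the 33 lay between -0.66 and 0.31, and their median was -0.04, against -0.009 over all genes.

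Trp53 was at 65.0 and 69.1 CPM in control medium and at 79.8 and 77.7 CPM in alkaline medium (0.23 ± 0.056, edgeR adjusted p 0.00416). Mdm2 was at 460 and 457 CPM and at 506 and 514 CPM (0.16 ± 0.039, edgeR adjusted p 0.00601). Both genes were higher in each alkaline library, by 1.17-fold and 1.11-fold. The call of Mdm2 did not hold without alkaline replicate 2 (edgeR adjusted p 0.074). Mdm4 was at 49.6 and 49.7 CPM and at 45.1 and 52.9 CPM, with overlapping groups (-0.02 ± 0.070, edgeR adjusted p 0.908). Zmat3 fell from 195 and 194 CPM to 161 and 169 CPM (-0.24 ± 0.046). Ccng1, the most abundant of the 33, was at 1295 and 1261 CPM and at 1280 and 1277 CPM, and its groups overlapped as well.

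Among the arrest and spindle genes, Cgref1 was at 57.8 and 59.2 CPM in control medium and at 76.1 and 69.4 CPM in alkaline medium (0.31 ± 0.060). Plk2 was at 225 and 236 CPM and at 284 and 277 CPM (0.28 ± 0.044). Psrc1 was at 85.8 and 81.9 CPM and at 72.7 and 70.7 CPM (-0.23 ± 0.055). The groups were separate for each of these genes. Btg2 was at 126 and 136 CPM and at 113 and 120 CPM (-0.17 ± 0.051, edgeR adjusted p 0.0197). This call of Btg2 was lost in a fit of all 8 libraries (edgeR adjusted p 0.068), without control replicate 2 (0.169) and without alkaline replicate 1 (0.191). Gtse1 was at 63.0 and 70.8 CPM and at 75.0 and 73.8 CPM (0.15 ± 0.061, edgeR adjusted p 0.0825), and it passed with the replicate number as a block (0.0489) and without control replicate 2 (0.0061). Ckap2 did not pass (-0.09 ± 0.15), from levels near 5 CPM.

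Of the death receptor and apoptosis genes, Fas was at 32.9 and 31.6 CPM in control medium and at 21.9 and 18.9 CPM in alkaline medium. Perp was at 204 and 200 CPM and at 158 and 154 CPM. Fas was thus lower by -0.66 ± 0.086 on the log2 scale and Perp by -0.37 ± 0.045, with edgeR adjusted p of 3.64e-06 and 1.45e-06 and no overlap of the groups. Of 19 macrophage markers tested 9 fell, with a median of -0.27 over the 19, and their part in the falls of Fas and Perp was not tested. The other 6 genes of this group did not pass, with log2 fold changes between -0.05 for Phlda3 and 0.05 for Eda2r and Tnfrsf10b.

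The stress and metabolic genes that passed were all lower. Sesn1 (chromosome 10, 41809935 to 41908424) was at 11 and 10.1 CPM in control medium and at 7.04 and 6.92 CPM in alkaline medium (-0.59 ± 0.13, edgeR adjusted p 0.00128). Ddit4l (chromosome 3, 137621612 to 137628333) was at 31.3 and 33.9 CPM and at 24.0 and 22.5 CPM (-0.49 ± 0.080, edgeR adjusted p 8e-05). Ephx1 was at 269 and 279 CPM and at 214 and 210 CPM (-0.37 ± 0.043). The alkaline libraries lay below the control libraries for each of these genes. Sesn2, the paralogue of Sesn1, was at 59.9 and 63.7 CPM and at 60.1 and 63.1 CPM, with overlapping groups. Dcxr was at 44.4 and 46.6 CPM and at 39.0 and 34.8 CPM (-0.30 ± 0.071, edgeR adjusted p 0.0029), and this call did not hold without alkaline replicate 2 (0.0605). Trp53inp1 (-0.11 ± 0.050) and Abhd4 (-0.13 ± 0.051) did not pass, although Trp53inp1 passed without control replicate 2 (edgeR adjusted p 0.00774) and Abhd4 without alkaline replicate 2 (0.024) or with library totals alone (0.0464). Tigar (0.15 ± 0.096) and Gdf15 (-0.12 ± 0.13) did not pass.

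In the repair group, Ercc5 was at 59.6 and 56.7 CPM in control medium and at 46.4 and 46.0 CPM in alkaline medium (-0.33 ± 0.061, edgeR adjusted p 0.000304). The other 4 genes did not pass, with Polk at 0.14 ± 0.056, Rrm2b at -0.06 ± 0.084, Ddb2 at -0.02 ± 0.14 and Xpc at 0.02 ± 0.10. Polk passed as higher without alkaline replicate 1 (edgeR adjusted p 0.0479).

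Set side by side, 14 of the 33 genes were called in both comparisons, which share no library. The directions were opposite for 12 of the 33 (36.4%) and the same for 2 of the 33 (6.06%). Of the 18484 genes tested in both comparisons, 9.60% were called in opposite directions and 6.99% in the same direction. Trp53 and Plk2 were lower in n-Sen and higher in alkaline medium. The other 10 of opposite direction, Zmat3, Btg2, Psrc1, Fas, Perp, Sesn1, Ddit4l, Ephx1, Dcxr and Ercc5, were higher in n-Sen and lower in alkaline medium. Mdm2 and Cgref1 were higher in both.

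**Figure D3:**
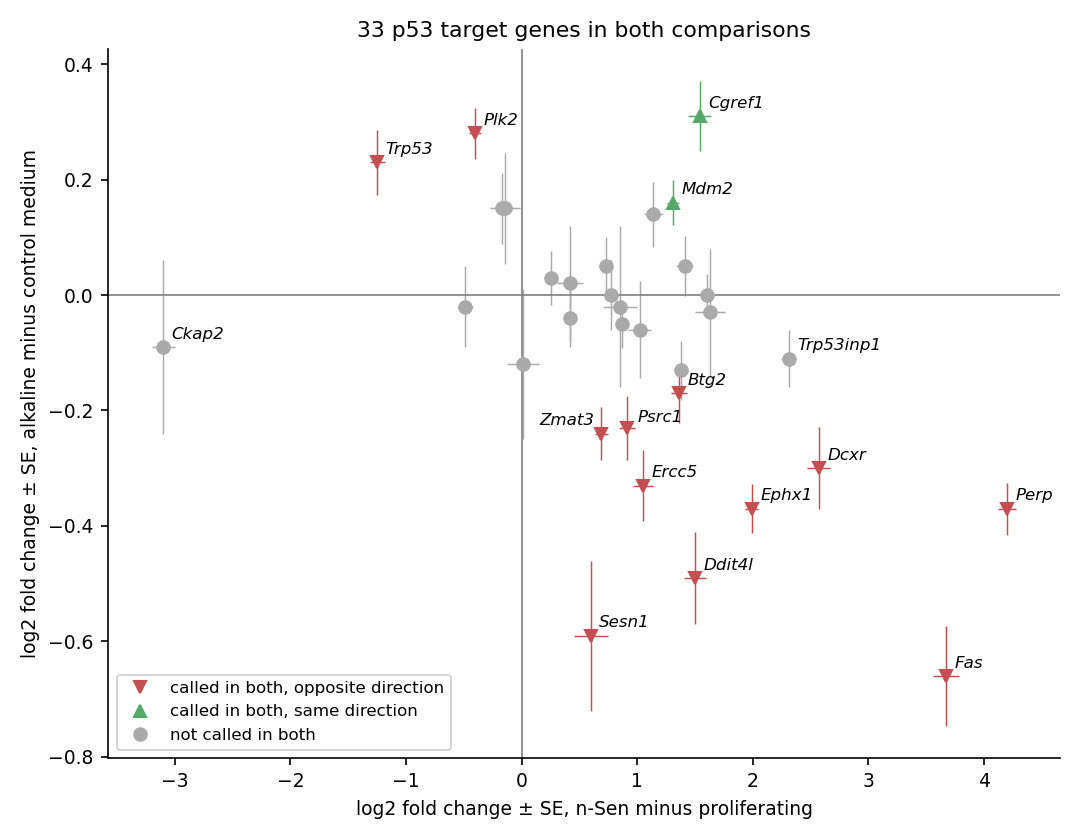
Log2 fold change ± SE of the 33 p53 target genes in n-Sen against proliferating cells (x axis) and in alkaline against control medium (y axis). Red triangles mark the 12 genes called in both in opposite directions, most of them at the lower right with Fas and Perp, green triangles mark Mdm2 and Cgref1, called higher in both, and grey points were not called in both.

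All 8 libraries were then scaled together, so that levels of the groups could be set side by side. The mean of Perp was 18.5 times its proliferating mean in n-Sen, 21.1 times in control medium and 16.4 times in alkaline medium. For Fas these ratios were 12.6 in n-Sen, 9.20 in control medium and 5.85 in alkaline medium. For Sesn1 the alkaline mean was 7.10 CPM, 0.885 of the proliferating mean of 8.03 CPM, and the libraries overlapped. Plk2 had means of 255 CPM in proliferating cells, 193 CPM in n-Sen, 233 CPM in control medium and 286 CPM in alkaline medium. Its level was thus already higher in control medium than in untreated n-Sen. The alkaline mean of Btg2, 118 CPM, was below the 133 CPM of control medium but above the 94.9 CPM of untreated n-Sen. Control medium itself lay within 1.3-fold of untreated n-Sen for 30 of the 33 genes, with the lowest ratio for Fas (0.729) and the highest for Btg2 (1.40). These ratios across the tables were not tested.

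**Figure D4:**
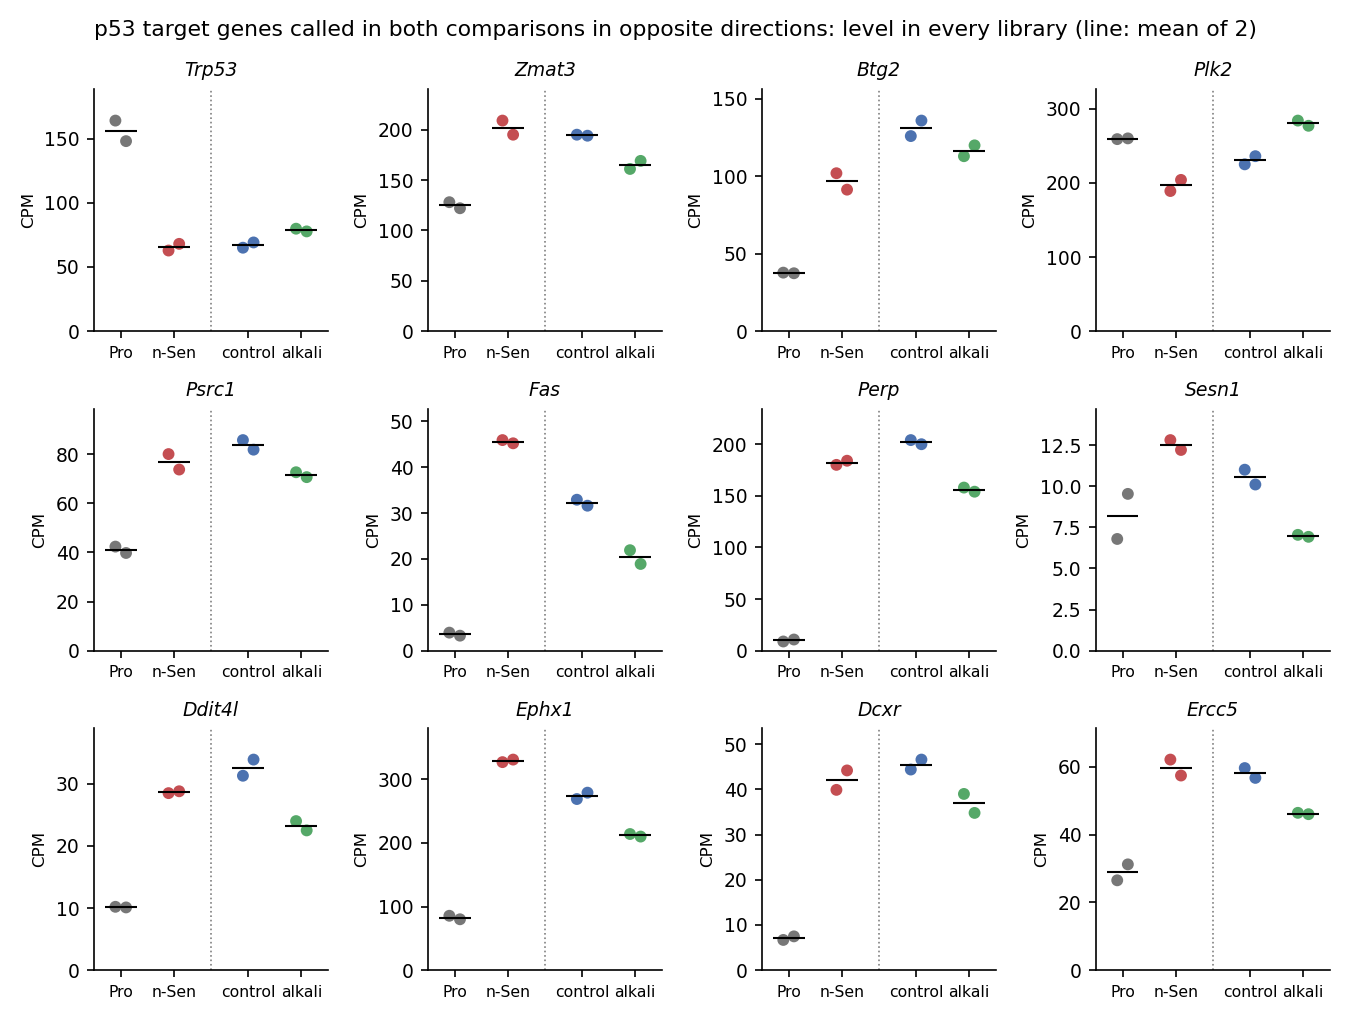
Level in CPM (y axes, from 0) in every library of the 12 genes called in both comparisons in opposite directions, for proliferating cells (Pro), n-Sen, and n-Sen in control and alkaline medium; each point is a library, lines are means of 2, and the dotted line separates tables that were scaled apart. Fas and Perp in alkaline medium stay well above proliferating cells, and Sesn1 reaches their range.

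Genes with the decamer shown above moved in both directions. Elements outside the windows were not searched, so the counts that follow cannot decide whether p53 binding sites mark a direction. Of the 11 genes with a decamer in the window, 8 rose and 3 fell in n-Sen (Trp53, Gtse1 and Ckap2), with a median of 0.60. Of the 15 without it, 11 rose and 2 fell, with a median of 1.05. In alkaline medium 2 of the 11 rose and 2 fell, and 2 of the 15 rose and 6 fell. For all genes tested, the shares were 34.0% higher and 33.1% lower in n-Sen, and 9.58% higher and 10.4% lower in alkaline medium. The 7 genes without a window in the table rose in n-Sen.

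Other p53 targets were read from a list of 38 genes. From the CDK inhibitor and BCL2 families it holds only Cdkn1a, Bax, Bbc3 and Pmaip1. In n-Sen 23 of 37 tested rose (62.2%) and 7 fell (18.9%), with a median of 0.49, against 34.0% and 33.1% of all genes. Pmaip1, the BH3-only protein Noxa, was at 31.7 and 28.1 CPM and at 249 and 245 CPM in n-Sen, and Igfbp3, an IGF binding protein, at 4.95 and 4.43 CPM and at 59.3 and 55.7 CPM. Thbs1, thrombospondin 1, rose by 1.43 ± 0.037, and Cdkn1a, the CDK inhibitor p21, by 2.04 ± 0.054. The pro-apoptotic genes Bax (-0.08 ± 0.066) and Bbc3 (-0.03 ± 0.11) did not pass. Those that fell included Pcna, the sliding clamp of replication, at -2.23 ± 0.064.

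In alkaline medium 7 of these 37 rose (18.9%) and 6 fell (16.2%), with a median of -0.03, against 9.58% and 10.4% of all genes. The cytokine gene Lif rose from 47.8 and 50.7 CPM to 97.7 and 97.4 CPM, Pmaip1 from 301 and 295 to 463 and 496 CPM, and Sfn, the 14-3-3 sigma gene, from 50.9 and 47.5 to 90.8 and 87.7 CPM. Apaf1, the scaffold of the apoptosome, rose by 0.35 ± 0.052. Cdkn1a was at 914 and 965 CPM and at 933 and 925 CPM, with overlapping groups (-0.02 ± 0.039, edgeR adjusted p 0.840).

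Regulators of p53 were a list of 29 genes, of which 28 were tested. In n-Sen 7 rose (25%), 14 fell (50%) and 7 did not pass, with a median of -0.24, where 34.0% of all genes rose and 33.1% fell. Cdkn2a, whose products include the MDM2 inhibitor ARF, rose by 4.29 ± 0.068. Counts per gene do not tell its transcripts apart. The checkpoint kinase gene Chek1 fell from 21.9 and 21.7 CPM to 2.22 and 2.12 CPM, and the p53 deubiquitinase gene Usp10 from 84.6 and 79.5 CPM to 32.3 and 33.1 CPM. Rpl5, a ribosomal protein that binds MDM2, fell by 0.83 on the log2 scale. In alkaline medium 3 of the 28 rose (10.7%) and 2 fell (7.14%), with a median of 0.03. Together 17.9% of the regulators passed, near the 20.0% of all genes tested (9.58% higher and 10.4% lower). The p53 ubiquitin ligase gene Trim24 fell from 45.0 and 43.5 CPM to 25.7 and 25.8 CPM. In the same comparison 1 of the 24 mitotic genes passed, Anln, lower by -0.38 ± 0.095, a count that was 2 with library totals alone and 3 in a fit of all 8 libraries.

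**Figure D5:**
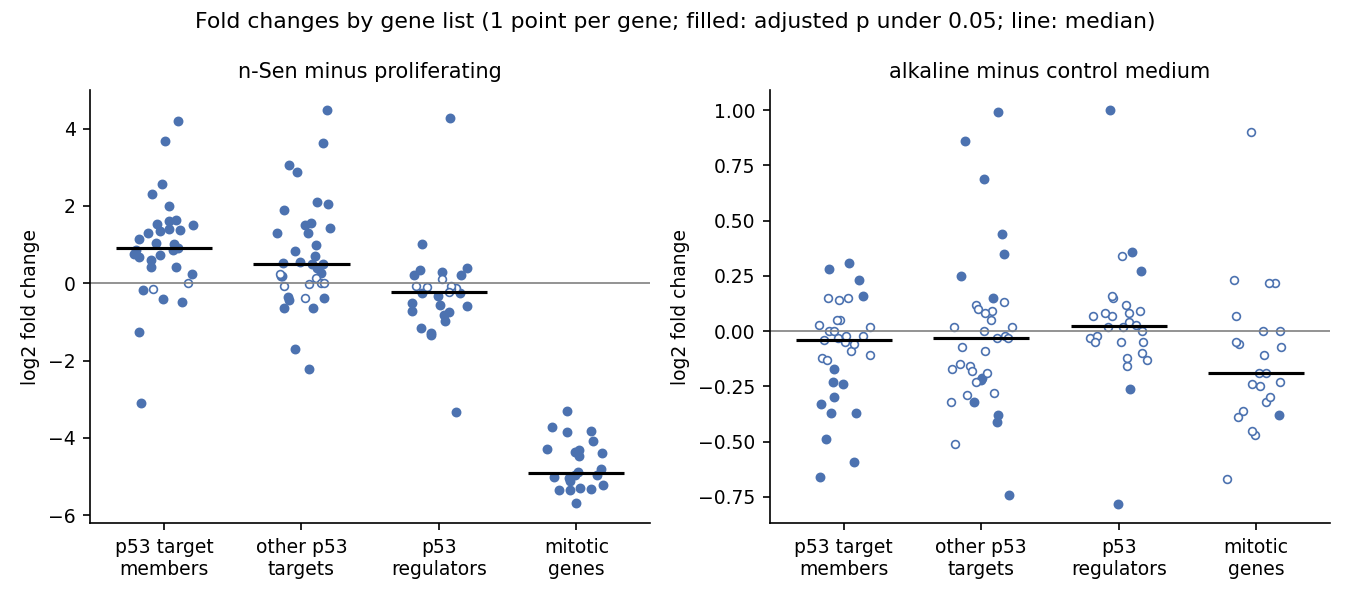
Log2 fold change (y axes; the scales differ) of each tested gene in 4 lists: the 33 p53 target genes, other p53 targets, p53 regulators and mitotic genes, in n-Sen against proliferating cells (left) and alkaline against control medium (right). Points are genes, filled when the adjusted p was under 0.05, and lines are medians, which on the left are 0.91, 0.49, -0.24 and -4.91.

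Some single levels are less certain than the rest. Exons of 5 of the 33, Ei24, Tigar, Ephx1, Ddb2 and Rrm2b, share bases with another annotated gene. Fractional counts occurred in at least 1 library for 21 of the 33 and in all 8 for Aen.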

How the data were processed

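The libraries keep the strand (dUTP), per the labels' protocols. The submitters' processing notes name mm10 as the build, DESeq2 (1.34.0), Subread's featureCounts (2.0.2), HISAT2 (2.1.0) and fastp (0.23.2), with no order. The strand setting and annotation release are not given in the sources used here. The authors deposited expected counts per gene in 2 tables, with between 32.7% and 33.7% of nonzero values fractional. They were rounded, filtered with filterByExpr, scaled by TMM and tested with edgeR 4.0.16 in R 4.3.3, each table on its own; an adjusted p under 0.05 was a call. The procedure was checked on simulated counts. Within groups, chi-square per degree of freedom was between 4.63 and 7.39, so no pair agreed within sampling noise.

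The genes and lists were chosen with earlier results of these data known. Values per library are given for Trp53, Mdm2 and Mdm4, for the called genes of largest change in each role (up to 3 per direction, all lower ones in n-Sen), and for genes of opposite direction. Further genes were added after their values were seen: Tigar, Gdf15, Ccng1, Gtse1 and Sesn2, and Bax and Bbc3. From other lists come the 4 genes of smallest p and Cdkn1a, and some of them are given by values only. Alternatives were DESeq2 1.42.0, other scalings and filters, unrounded counts, a replicate block, a fit of all 8 libraries and leaving out each library.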

Additional observations from a re-analysis of the deposited data

How the results depend on the processing

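With 2 libraries per group, leaving out a library leaves 1 library in an arm, which is then assumed to vary like the others. Counts of the 33 genes moved little: leaving out each library gave 30 to 31 called in n-Sen and 13 to 15 in alkaline medium, with 11 to 13 of opposite direction in both. The replicate numbers are not stated to mark a shared culture or day, and deviations of same-numbered libraries correlated at -0.118 and -0.00173. With the replicate number as a block, 31 were called in n-Sen, 15 in alkaline medium (16 of the other p53 targets, 6 regulators) and 13 in opposite directions; the added gene was Gtse1. Crossing the numbers in n-Sen, an alternative chosen after seeing the data, gave 31. Counts that moved by over 1.5 times, all in alkaline medium, were p53 regulators with DESeq2 (3 in place of 5) and mitotic genes with library totals (2), with the replicate block (2), with all 8 libraries (3) and with a library left out (1 to 2), in place of 1; the cause was not tested. Signs turned only for values that passed neither as reported nor where the sign turned. In n-Sen these were Tigar with a library left out (-0.33 to 0.06) and Gdf15 with library totals (-0.04) and with a library left out (-0.18 to 0.21). In alkaline medium they were Ccng1 with library totals (-0.02) and without the filter (-0.0042), and Sesn2 with DESeq2 size factors (0.00064), with DESeq2 (4.2e-05) and with all 8 libraries (0.0029). With a library left out, values ran across 0 for Mdm4 (-0.14 to 0.09), Ccng1 (-0.02 to 0.02), Tnfrsf10b (-0.00087 to 0.11), Trp53i11 (-0.13 to 0.06), Sesn2 (-0.05 to 0.04), Ddb2 (-0.13 to 0.11), Xpc (-0.05 to 0.09) and Rrm2b (-0.15 to 0.02). Low levels limit Ddb2, Sesn1, Ckap2 and Gdf15, whose SEs in alkaline medium were between 0.13 and 0.15.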

Other observations

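The ASPP family binds p53 and tunes its choice of target genes: Ppp1r13b (ASPP1) and Trp53bp2 (ASPP2) favour apoptotic targets, and Ppp1r13l (iASPP) inhibits p53. The family was singled out after its values were seen. In alkaline medium all 3 genes passed as higher with edgeR, where 9.58% of all genes did, but only Ppp1r13l passed under every alternative run. Ppp1r13l was at 38.6 and 42.1 CPM in control medium and at 81.4 and 79.7 CPM in alkaline medium (1.0 ± 0.061, adjusted p 2.71e-11). Ppp1r13b was at 13.7 and 12.7 CPM and at 17.5 and 16.3 CPM (0.36 ± 0.10, edgeR adjusted p 0.0144), and Trp53bp2 at 26.3 and 27.7 CPM and at 34.3 and 31.1 CPM (0.27 ± 0.078, edgeR adjusted p 0.0137). Ppp1r13b did not pass with DESeq2 (adjusted p 0.0612), nor with edgeR without control replicate 2 (0.106) or alkaline replicate 1 (0.0956). Trp53bp2 did not pass with edgeR without control replicate 1 (adjusted p 0.0739) or alkaline replicate 1 (0.170). In n-Sen against proliferating cells Ppp1r13l rose (1.02 ± 0.090), Trp53bp2 fell (-0.51 ± 0.080) and Ppp1r13b did not pass (0.12 ± 0.12).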
